A study of Mus musculus with 76 samples.

Results

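The voltage-gated sodium channel subunits described here are 7 genes, 4 that encode pore-forming alpha subunits (Scn1a, Scn2a, Scn3a and Scn8a) and 3 that encode auxiliary beta subunits (Scn2b, Scn3b and Scn4b). They were taken by symbol from a table of 35825 gene rows, and all 7 were found there. They were measured in single neurons by Patch-seq, which sequences the RNA aspirated from a neuron through the recording pipette. The cells lay in the dorsal CA1 pyramidal cell layer of mouse pups of postnatal day 4 and carried the red reporter tdTomato, switched on by Cre recombinase under Nkx2.1, a gene of the medial ganglionic eminence (MGE). That reporter background (Nkx2.1 Cre: Ai14) was shared by every group. The mutant pups carried GPHN with the change S268/270A in gephyrin, the scaffold protein of inhibitory synapses, and are called Mut as in the labels. Cells passing the authors' filter and without a contamination mark numbered 19 in Mut females, 9 in WT females, 15 in Mut males and 19 in WT males, 62 in all of 76 labelled cells. A further 5 kept WT cells bore a contamination mark and 9 cells had been removed by the filter. No animal or litter was named for any cell, so how many pups stand behind a group is not known here and no cell was treated as a replicate.

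A sodium channel alpha subunit is one long chain of 4 homologous domains that opens on depolarisation, carries the rising phase of the action potential and closes again within milliseconds by inactivation. Beta subunits are single-pass membrane proteins with an immunoglobulin-like domain that shift the gating of the alpha subunits, carry them to the surface and act in cell adhesion. Scn1a encodes Nav1.1, the channel that mature fast-spiking interneurons depend on, Scn2a and Scn3a encode Nav1.2 and Nav1.3, which are prominent early in development, and Scn8a encodes Nav1.6, the channel of the mature axon initial segment. Scn2b and Scn4b encode the beta subunits that bind the alpha chain through a disulphide bond, while Scn3b encodes one that binds without it.

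Scn8a, the alpha subunit found in most cells, serves to show the stretch that closes the pore. The 84 coding bases around its inactivation gate, the loop between the third and the fourth domain, are printed in the mRNA sense, read from the GENCODE M21 transcripts of GRCm38. Capitals mark the 9 bases for isoleucine, phenylalanine and methionine, the hydrophobic latch of the gate. The stretch spans the join of exons 24 and 25 of the longest coding transcript and lies, intron included, at chr15:101032302-101033540 on the plus strand.
Scn8a: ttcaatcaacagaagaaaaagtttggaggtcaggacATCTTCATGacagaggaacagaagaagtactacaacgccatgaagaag

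The alpha subunits are close relatives in sequence, which touches the counting. Over all annotated transcripts, 7.29% of the distinct 31-base words of Scn1a, 9.16% of those of Scn2a and 9.57% of those of Scn3a also occurred in another gene, nearly all of them in other sodium channel genes. Scn8a shared 0.528% of its words, Scn3b 0.341%, Scn2b 2.22% and Scn4b none. Reads that fall wholly in shared words can be split between Scn1a, Scn2a and Scn3a, so small values of these 3 genes beside a large one of another are uncertain. No exon of a member overlapped an exon of another annotated gene. Scn1a, Scn3a, Scn2b and Scn3b each overlapped a gene on the opposite strand that has no row in the count table.

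In GRCm38, the first 3 of the alpha genes lie together on chromosome 2, Scn3a at 65457118 to 65567627 on the minus strand, Scn2a at 65620771 to 65767447 on the plus strand and Scn1a at 66270778 to 66440840 on the minus strand. Scn8a lies on chromosome 15 at 100869858 to 101045938. The beta genes are all on the plus strand of chromosome 9, Scn3b at 40269217 to 40291618, Scn2b at 45117782 to 45130070 and Scn4b beside it at 45138395 to 45154152.

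The 62 cells held 2946456 to 12070780 counts (median 6353179) and 9189 to 13793 genes with a count. Checked against the MGE label, 57 of the 62 cells had Lhx6, a transcription factor of MGE interneurons, at 10 CPM or more (counts scaled to the cell's own total), 58 had Gad1 and 48 had Gad2, both enzymes of GABA synthesis. Transcripts of other cell types were present too. Neurod6, of pyramidal neurons, reached that level in 31 cells, at least 1 of 9 astrocyte and radial glia markers did so in 52 cells, and at least 1 of 11 microglial markers in 23 cells. The summed pyramidal markers were 217 CPM in Mut female, 303 CPM in WT female, 373 CPM in Mut male and 472 CPM in WT male cells, pooled by group. The astrocyte and radial glia markers summed to 1042 CPM in Mut female, 1067 CPM in WT female, 516 CPM in Mut male and 1106 CPM in WT male cells, while the microglial markers summed to 373 CPM in Mut female, 117 CPM in WT female, 103 CPM in Mut male and 140 CPM in WT male cells. Their part in the values below was not tested except where a value without such cells is given.

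Scn3b had the highest median level of the subunits, and Scn4b lay at or near 0. Set side by side in TPM, the authors' length-scaled abundance, Scn3b had a median of 29.1 TPM over the 62 cells, Scn8a 13.4 TPM, Scn1a 5.09 TPM, Scn2a 3.46 TPM, Scn3a 1.71 TPM, Scn2b 1.29 TPM and Scn4b 0 TPM. Apart from the last step, no step of this order was sharp against the spread between cells. Scn3b exceeded Scn8a in 40 of 62 cells, Scn8a exceeded Scn1a in 38, Scn1a exceeded Scn2a in 37, Scn2a exceeded Scn3a in 36, and Scn3a exceeded Scn2b in only 30. Scn2b exceeded Scn4b in 57 cells. The quartiles of Scn3b ran from 2.601 to 64.4 TPM and those of Scn8a from 1.15 to 37.9 TPM.

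**Figure D1:**
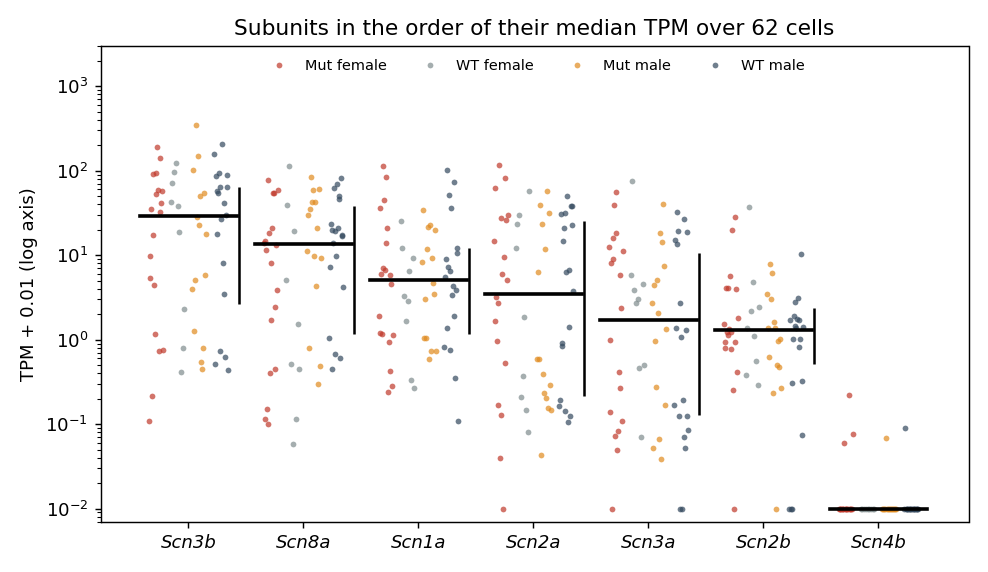
TPM plus 0.01 on a log axis for each subunit in each of 62 cells, coloured by group, with subunits ordered by their median (black bar; the vertical line beside it runs from the lower to the upper quartile). Scn3b has the highest median at 29.1 TPM and Scn4b lies at 0 in nearly every cell, while the clouds of neighbouring subunits overlap over most of their range.

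Which subunit was highest varied from cell to cell. Scn3b had the highest TPM of the 7 in 28 cells, Scn8a in 13, Scn2a in 7, Scn1a in 7, Scn3a in 4 and Scn2b in 3. Among the 56 cells with an alpha subunit at 10 CPM or more, the leading alpha subunit was Scn8a in 21, Scn2a in 15, Scn1a in 11 and Scn3a in 9. The leader held a median of 56.8% of the alpha TPM of its cell (lowest 34.1%, highest 99.4%), and more than 90% in 10 cells. Every one of the 4 alpha subunits was thus the main one somewhere.

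The order also moved between groups. By median TPM, Scn8a came first in Mut males (20.8 TPM) and second in Mut females (11.4 TPM) and WT males (17.5 TPM), but behind Scn3b, Scn1a, Scn3a and Scn2a in WT females (1.52 TPM). Scn2a had a median of 5.13 TPM in Mut females and 1.86 TPM in WT females, and of 0.574 TPM in Mut males and 6.29 TPM in WT males. Scn3b came first in 3 of the 4 groups and second in Mut males. TPM depends on which transcripts the reads were assigned to. The length implied by the ratio of counts to TPM in cells with 100 counts or more ran from 1899 to 8480 bases for Scn1a (median 4011) and from 790 to 11988 bases for Scn8a (median 7715), whereas their longest coding transcripts have 8386 and 11436 bases. Its part in the order was not tested.

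**Figure D2:**
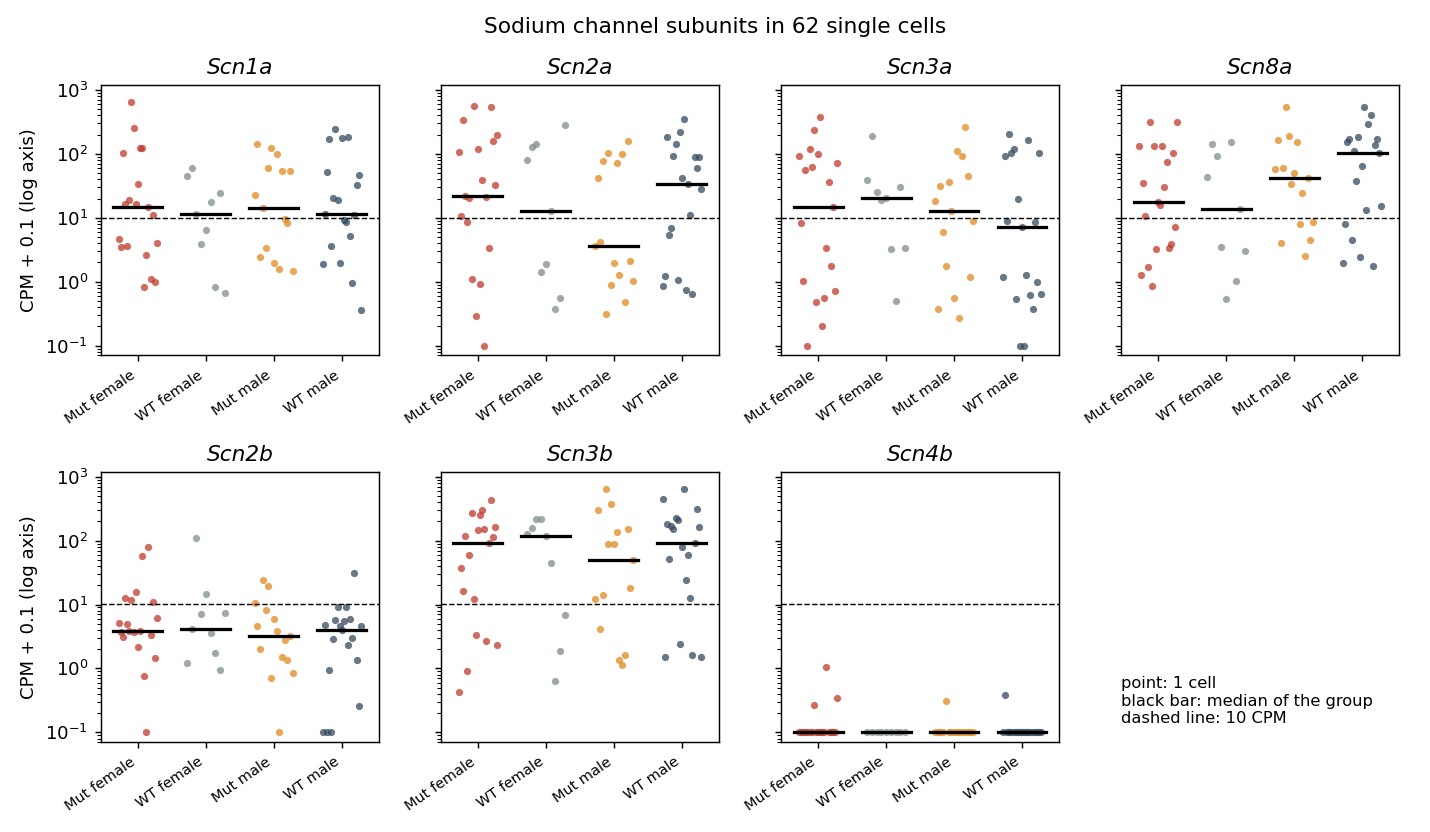
CPM plus 0.1 on a log axis for each subunit, 1 point per cell, in Mut female (19), WT female (9), Mut male (15) and WT male (19) cells, with the group median as a black bar and 10 CPM as a dashed line. The ranges of all 4 groups overlap for every subunit, Scn3b medians lie between 50.4 and 118 CPM, and no Scn4b point reaches the dashed line.

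For the comparison of genotypes, the cells of a group were summed into 1 library. Sums are given as CPM scaled by the trimmed mean of M values (TMM). In such sums, fewer cells of a type and less RNA per cell cannot be told apart. Genotype was tested with edgeR's quasi-likelihood test on the 4 sums, with sex as a second term and 1 residual degree of freedom per gene. None of the 6 subunits tested passed an adjusted p of 0.05 in either direction, as was so for all 16435 genes tested (0% called), and every adjusted p of a subunit was 1. At an unadjusted p under 0.05 the count was 0 of 6 subunits, against 3.5% of all genes (273 genes higher and 302 lower in Mut). DESeq2, which estimates the spread differently, called 367 genes higher (2.23%) and 299 lower (1.82%) in Mut at an adjusted p under 0.05, and no subunit was among them. The spread between the sums was wide, with a biological coefficient of variation of 0.958, so the intervals below span large changes in both directions. With terms for sex and genotype on 4 sums, what is left as spread is the disagreement of the sexes in the genotype ratio.

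Scn1a, the gene of Nav1.1, ranged from 0.717 to 653 CPM per cell in Mut females (median 14.4) and from 0.560 to 60.8 CPM in WT females (median 11.6). In males it ranged from 1.37 to 142 CPM in Mut cells (median 14.1) and from 0.260 to 247 CPM in WT cells (median 11.3). The groups overlapped over nearly their whole range, and the medians lay close together. It reached 10 CPM in 11 of 19 Mut female, 5 of 9 WT female, 8 of 15 Mut male and 11 of 19 WT male cells.

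The summed level of Scn1a was 60.6 CPM in Mut females and 23.6 CPM in WT females, and 38.2 CPM in Mut males and 50.5 CPM in WT males. Exact Poisson intervals at 95% on the female sums, 59.2 to 61.95 CPM in Mut and 22.3 to 24.95 CPM in WT, did not overlap, but they hold counting error only and a single cell, Mut female cell 10, gave 34.9% of the Mut female sum. The log2 ratio of Mut over WT was 1.32 in females, 0.77 without that cell, and -0.39 in males. In the fit across both sexes Scn1a had a log2 fold change of 0.48 (SE 0.88, 95% interval -1.86 to 2.81, unadjusted edgeR p = 0.615), and 0.20 without that cell.

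Scn2a, the gene of Nav1.2, ranged from 0 to 558 CPM in Mut female cells (median 22.1) and from 0.267 to 282 CPM in WT female cells (median 12.6). Mut male cells had 0.208 to 157 CPM (median 3.55) and WT male cells 0.546 to 357 CPM (median 33.1). The highest WT male value lay in WT male cell 12, which had 2.55 CPM of Lhx6, 8.24 CPM of Gad1 and 833 CPM of Neurod6. The same cell held the highest WT male values of Scn8a and Scn3b. In males, 6 of 15 Mut and 12 of 19 WT cells were at 10 CPM or more, with overlapping ranges, and in females 13 of 19 Mut and 5 of 9 WT cells were.

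Summed, Scn2a stood at 103 CPM in Mut females and 95.1 CPM in WT females, and at 42.9 CPM in Mut males and 63.2 CPM in WT males. WT female cell 9 alone gave 52.9% of the WT female sum. The log2 ratio was 0.12 in females, 0.995 without that cell, and -0.55 in males. In males it ran from -0.94 without Mut male cell 17 to -0.31 without WT male cell 12. Over both sexes it was -0.22 (SE 0.59, 95% interval -1.78 to 1.34, unadjusted edgeR p = 0.726), and 0.22 without WT female cell 9, so its sign rested on 1 cell.

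Scn3a, the gene of Nav1.3, a channel best known from embryonic and newborn brain, had 0 to 382 CPM in Mut female cells (median 14.4) and 0.401 to 193 CPM in WT female cells (median 20.4). In male cells it had 0.171 to 260 CPM in Mut (median 12.7) and 0 to 203 CPM in WT (median 6.97). It reached 10 CPM in 10 of 19 Mut female, 6 of 9 WT female, 8 of 15 Mut male and 7 of 19 WT male cells, and the 4 groups overlapped.

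The Scn3a sums were 55.6 CPM in Mut females and 40.5 CPM in WT females, and 40.6 CPM in Mut males and 44.8 CPM in WT males. Single cells carried much of them, WT female cell 2 with 53.6% of its sum and Mut male cell 16 with 43.4%. The log2 ratio was 0.45 in females and -0.14 in males, and 0.16 over both sexes (SE 0.74, 95% interval -1.80 to 2.11, unadjusted edgeR p = 0.840). Without WT female cell 2 the value over both sexes became 0.58, and without Mut male cell 16 it became -0.19.

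Scn8a, the gene of Nav1.6, was the alpha subunit found in most cells, 41 of 62 at 10 CPM or more. It ranged from 0.759 to 317 CPM in Mut female cells (median 17.7) and from 0.433 to 151 CPM in WT female cells (median 13.6). Mut male cells had 2.45 to 551 CPM (median 42.5) and WT male cells 1.64 to 536 CPM (median 105). The highest WT male value was that of WT male cell 12, the cell low in Lhx6 and high in Neurod6 named under Scn2a. Males had the higher medians in both genotypes, with overlapping ranges, and 10 of 15 Mut male and 14 of 19 WT male cells reached 10 CPM against 12 of 19 Mut female and 5 of 9 WT female cells.

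The Scn8a sums were 57.7 CPM in Mut females and 54.1 CPM in WT females, and 80.2 CPM in Mut males and 114 CPM in WT males. The log2 ratio was 0.09 in females and -0.51 in males, and -0.21 over both sexes (SE 0.59, 95% interval -1.75 to 1.34, unadjusted edgeR p = 0.738). Over both sexes the value was -0.40 without Mut male cell 5 and -0.03 without WT female cell 6, the ends of the range on leaving out each cell in turn. In males the log2 ratio ran from -0.88 without Mut male cell 5 to -0.32 without WT male cell 12.

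Scn3b, the gene of the beta3 subunit, which is the beta subunit most prominent in young brain, was at 10 CPM or more in 46 of 62 cells, the most of any subunit. It had 0.329 to 433 CPM in Mut female cells (median 93.4) and 0.535 to 222 CPM in WT female cells (median 118). Mut male cells had 1.03 to 640 CPM (median 50.4) and WT male cells 1.41 to 644 CPM (median 93.1). Values above 10 CPM and values near 1 CPM occurred in every group, with 14 of 19 Mut female, 6 of 9 WT female, 11 of 15 Mut male and 15 of 19 WT male cells at the limit or over it.

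Summed, Scn3b stood at 123 CPM in Mut females and 95.4 CPM in WT females, and at 111 CPM in Mut males and 135 CPM in WT males. The log2 ratio was 0.37 in females and -0.27 in males, and 0.05 over both sexes (SE 0.50, 95% interval -1.27 to 1.36, unadjusted edgeR p = 0.929). That interval is the narrowest of the 6 subunits tested, but the sign of the value was not fixed, at -0.10 without Mut male cell 5.

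Scn2b, the gene of the beta2 subunit, differed from the others in its distribution. In 44 of 62 cells it had 10 to 99 counts and in only 6 cells 100 or more, while Scn3b had 100 counts or more in 41 cells. It had 0 to 80.2 CPM in Mut female cells (median 3.78) and 0.838 to 109 CPM in WT female cells (median 4.10), and 0 to 23.9 CPM in Mut male cells (median 3.13) and 0 to 31.02 CPM in WT male cells (median 3.95). The 4 medians lay within 1 CPM of each other.

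At 10 CPM or more, Scn2b was found in 9 of 34 Mut cells (26.5%, exact Clopper-Pearson 95% interval 12.9 to 44.4%) and in 3 of 28 WT cells (10.7%, 2.27 to 28.2%), with 6 of 19 in Mut females, 2 of 9 in WT females, 3 of 15 in Mut males and 1 of 19 in WT males. The intervals overlap and hold counting error only. The sums were 14.4 CPM in Mut females and 14.5 CPM in WT females, and 6.12 CPM in Mut males and 4.58 CPM in WT males, with WT female cell 3 giving 68.9% of the WT female sum. The log2 ratio was -0.01 in females, 1.32 without that cell, and 0.35 in males, and over both sexes 0.20 (SE 1.39, 95% interval -3.47 to 3.88, unadjusted edgeR p = 0.890), 0.95 without WT female cell 3 and -0.087 without Mut female cell 19, which held 37.4% of its sum. With every cell scaled to 1 total it was -0.15, so its direction was not fixed.

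Scn4b, the gene of the beta4 subunit, is known for the intracellular tail with which it can enter the open pore and give rise to resurgent current in fast-spiking neurons. As it is the 1 subunit that reached 10 CPM in none of the 62 cells, a part of the coding stretch for that tail is shown, from GRCm38 chromosome 9, 45149352 to 45149393 on the plus strand, within exon 4, with its first 18 bases in capitals.
Scn4b: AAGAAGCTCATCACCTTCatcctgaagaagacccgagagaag
Over the 62 cells Scn4b had 7 counts in all, 5 in Mut females, 0 in WT females, 1 in Mut males and 1 in WT males. Its highest value was 0.966 CPM, in a Mut female cell, and 57 cells had no count. At 0 of 62 cells at 10 CPM, the floor of 3 cells allows a share of up to 4.84%, and the exact Clopper-Pearson interval ends at 5.78%. It was not tested, and no fold is given since every sum was at or near the floor of 3 counts.

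Taking the 6 tested subunits as a list, the median log2 fold change of genotype was 0.10, against -0.000417 over all 16435 genes. In females the median log2 ratio of Mut over WT was 0.24 (0.02 over all genes) and in males -0.33 (-0.02 over all genes). The ratio had opposite signs in the sexes for 6 of 6 subunits, where 49.2% of all genes had opposite signs, and the same sign for 0 of 6, where 50.2% of all genes had the same sign. For Scn1a, Scn2a, Scn3a, Scn8a and Scn3b the ratio was above 0 in females and below 0 in males, and for Scn2b the other way round. The female ratio of Scn2b was only -0.01 and changed sign on leaving out 18 of the 28 female cells in turn. The 6 subunits share the same sums, so their signs are not independent of each other. A disagreement between the sexes is also what the fit takes as its error, so it enters the intervals given above. With 1 sum per group no test of female against male ratios could be made, and for Scn2a, Scn3a, Scn8a and Scn2b the sign in at least 1 sex changed when 1 cell was left out.

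**Figure D3:**
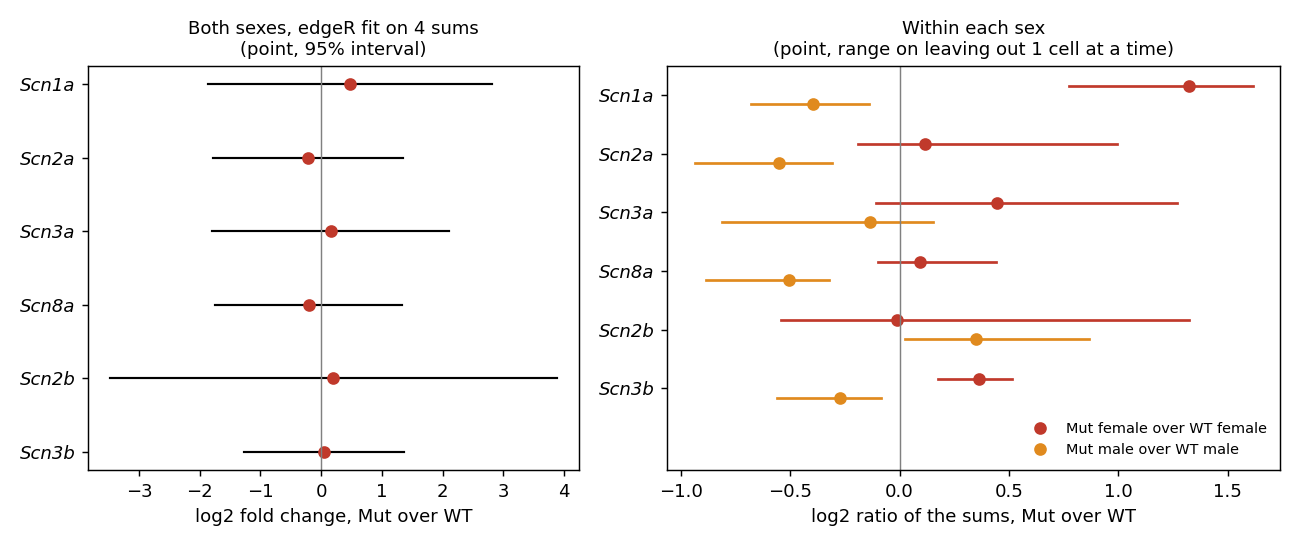
Left, log2 fold change of Mut over WT across both sexes from the edgeR fit on 4 sums, with 95% intervals; right, log2 ratio of the Mut sum over the WT sum within females and within males, with lines for the range on leaving out 1 cell at a time. All 6 intervals on the left cross 0, and on the right only Scn1a and Scn3b keep their sign in both sexes whichever cell is left out.

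The sex term of the same fit called no subunit and no other gene (0% called; unadjusted p under 0.05 in 0 of 6 subunits and in 3.88% of genes, 383 higher and 254 lower in males; DESeq2 called 448 genes higher, 2.73%, and 263 lower, 1.6%, and no subunit). Scn8a was higher in males within both genotypes, at 80.2 CPM in Mut males and 57.7 CPM in Mut females, and at 114 CPM in WT males and 54.1 CPM in WT females. Its log2 fold change of male over female was 0.78 (SE 0.59, 95% interval -0.78 to 2.33, unadjusted edgeR p = 0.249). Scn2a had a lower sum in males within both genotypes, with a log2 fold change of -0.93 (SE 0.60, 95% interval -2.50 to 0.65, unadjusted edgeR p = 0.186), and of -0.48 without WT female cell 9. Its median over WT cells went the other way, at 33.1 CPM in males and 12.6 CPM in females. For Scn2b, also of lower sum in males in both, it was -1.45 (SE 1.42, 95% interval -5.19 to 2.30, unadjusted edgeR p = 0.359), and -0.70 without WT female cell 3, while the WT medians were 3.95 CPM in males and 4.10 CPM in females. Scn1a (0.22), Scn3a (-0.15) and Scn3b (0.18) had smaller values, and that of Scn3a became 0.27 without WT female cell 2.

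Markers of pyramidal neurons moved with sex too. Their sum was 424 CPM in male and 246 CPM in female cells, and Neurod6 reached 10 CPM in 22 of 34 male and 9 of 28 female cells. All 10 listed markers of that type had counts in every group. Scn8a had a rank correlation of 0.28 with their summed CPM across the 62 cells and Scn2a one of -0.07, both descriptions over cells that share their libraries' chemistry. The part of these markers in the sex values was not tested.

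Alpha and beta subunits were found together in most cells at the limit of 10 CPM, but not at every limit. It was 29 of 62 cells at 50 CPM, 31 at 10 TPM and 62 at 1 count. At 10 CPM or more, 45 of 62 cells (72.6%, exact Clopper-Pearson 95% interval 59.8 to 83.1%) held at least 1 alpha and at least 1 beta subunit of the 7. An alpha subunit without a beta subunit was found in 11 cells, a beta subunit without an alpha subunit in 2, and neither in 4. The beta subunit was Scn3b in 44 of the 45 cells.

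By genotype, both kinds were found in 25 of 34 Mut cells (73.5%, 55.6 to 87.1%) and 20 of 28 WT cells (71.4%, 51.3 to 86.8%). By group it was 15 of 19 Mut female, 6 of 9 WT female, 10 of 15 Mut male and 14 of 19 WT male cells. The exact intervals of the groups overlap.

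The number of alpha subunits in a cell ran over the whole possible range. At 10 CPM, 6 cells held none, 16 held 1, 7 held 2, 19 held 3 and 14 held all 4. The commonest set after all 4 was Scn1a with Scn2a and Scn8a, in 10 cells, followed by Scn1a with Scn3a and Scn8a, in 6. Where 1 alpha subunit was found alone, it was Scn2a in 5 cells, Scn3a in 5, Scn8a in 4 and Scn1a in 2. The median number was 3 in each of the 4 groups.

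**Figure D4:**
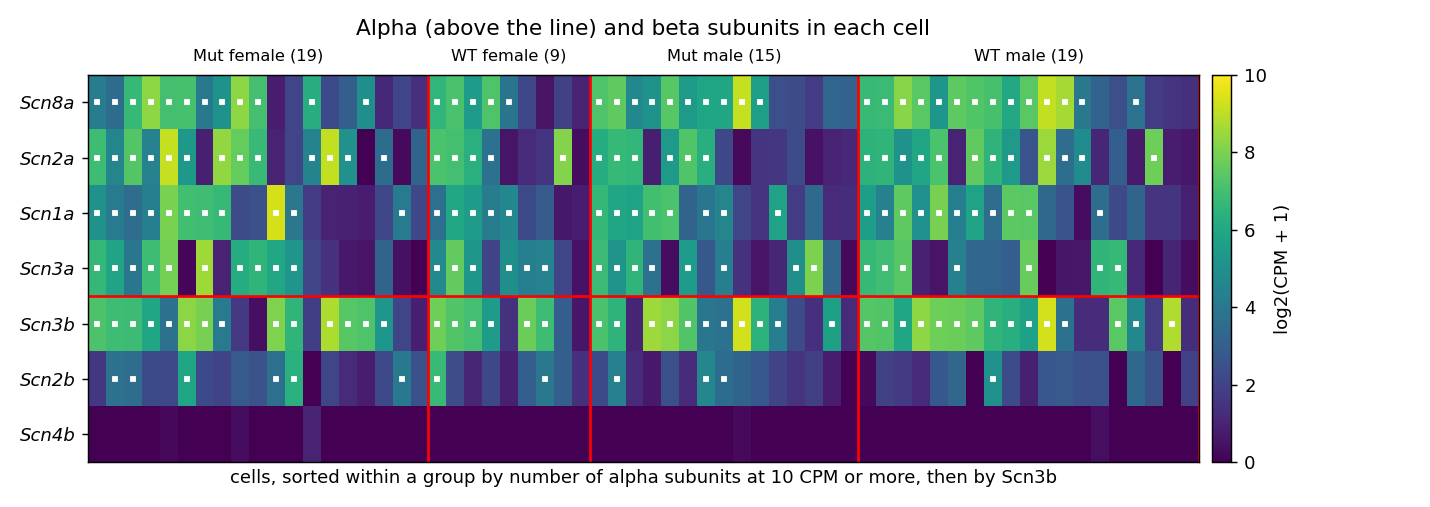
Each column is 1 cell and each row 1 subunit, coloured by log2(CPM + 1), with a white square where the subunit is at 10 CPM or more; cells are sorted within Mut female, WT female, Mut male and WT male by their number of alpha subunits and then by Scn3b. White squares of Scn3b lie under most columns with 3 or 4 alpha subunits, squares of Scn2b are few (12 cells), and the Scn4b row has none.

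The share of cells with Scn3b was largest among cells with 3 or 4 alpha subunits. It reached 10 CPM in 2 of 6 cells with no alpha subunit (33.3%), 11 of 16 with 1 (68.8%), 4 of 7 with 2 (57.1%), 16 of 19 with 3 (84.2%) and 13 of 14 with 4 (92.9%). The median total counts of these classes ran from 3954770 to 7454770 without following that order, and the median number of genes with a count was 10559, 11243, 10965, 11612 and 11615, the 2 largest being those of cells with 3 and 4 alpha subunits. The number of subunits at the limit had a rank correlation of 0.37 with the number of genes with a count and of 0.17 with total counts (n = 62 cells). The part of library complexity in co-detection was not tested.

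Among the pairs, Scn1a and Scn8a went together in 30 cells, which is 85.7% of the 35 cells with Scn1a, and Scn8a was found in 40.7% of the cells without Scn1a. Scn2a and Scn8a went together in 31 cells, 86.1% of the 36 cells with Scn2a, against 38.5% of those without. Scn2a and Scn3a shared 17 cells, and Scn3a was found in 47.2% of cells with Scn2a and 53.8% of cells without it. For Scn2a with Scn3a, unlike the other pairs named, the share was no larger in cells with the partner.

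Of the alpha and beta pairs, Scn3b was found in 31 of 35 cells with Scn1a (88.6%) and in 55.6% of cells without it, and in 35 of 41 cells with Scn8a (85.4%) and in 52.4% of those without. Scn2b was found in 11 of 35 cells with Scn1a (31.4%) and in 3.70% of cells without it, which was 1 cell of 27. For Scn2a the share with Scn2b was 19.4%, and without it 19.2%. Of the 12 cells with Scn2b, 11 also had Scn3b. Across the 62 cells the rank correlations of CPM were 0.42 for Scn1a with Scn3a, 0.42 for Scn1a with Scn8a, 0.39 for Scn2a with Scn8a and 0.12 for Scn2a with Scn3a. Scn1a and Scn2b, found together at the limit in 11 of the 35 cells with Scn1a, had a rank correlation of 0.08.

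The 4 cells in which no subunit reached 10 CPM were spread over the groups, Mut female cell 6, WT female cell 7, Mut male cell 12 and WT male cell 16. The summed astrocyte and radial glia markers were 2709 CPM in Mut female cell 6, 7207 CPM in WT female cell 7 and 3936 CPM in WT male cell 16, against a median of 213 CPM over the 62 cells. Mut male cell 12 had 13.3 CPM of them, with 741 CPM of Gad1 and 913 CPM of Gad2. Scn1a had a rank correlation of -0.32 and Scn3b of -0.29 with that marker sum. The part of glial transcripts in these low values was not tested. With only cells that had Lhx6 at 10 CPM or more, the direction of every tested subunit's genotype value was the same as over all 62 cells. That setting keeps Mut female cell 6 (56.4 CPM of Lhx6) and WT male cell 16 (1031 CPM), so it cannot speak to glial transcripts.

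Other genes of the pathway were read from lists chosen with results of these data known. Of 39 symbols on 7 lists, 37 had a row. Nalf1 and Nalf2, without a row, are newer symbols of Fam155a and Tmem28, which are listed too and had rows. Of the 37 genes, 35 could be tested, and edgeR called none in either direction for genotype, as it called 0% of all genes. DESeq2, which called 2.23% of all genes higher and 1.82% lower, called 0 of them higher and 1 lower in Mut. Of the other alpha genes, Scn9a (Nav1.7) reached 10 CPM in 13 cells, with a log2 fold change of 1.15 (SE 1.30, unadjusted edgeR p = 0.418). The Scn9a values are open to the sharing of reads with Scn1a, Scn2a and Scn3a. Scn7a reached 10 CPM in 2 cells, Scn10a in 1, and Scn4a and Scn11a in none.

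Among the intracellular FGFs, which bind the tail of the alpha subunits and set their inactivation, Fgf13 was found in 54 of 62 cells at a mean of 504 CPM over the sums, and its log2 fold change was 0.15 (SE 0.34, unadjusted edgeR p = 0.679). Fgf12 was found in 24 cells, Fgf14 in 15 and Fgf11 in 9, and edgeR called none of the 4. Fgf11 was the gene that DESeq2 called lower in Mut (log2 fold change -3.17, adjusted p = 0.0493), and in edgeR it had -3.17 (SE 1.52, unadjusted p = 0.0970, adjusted p = 1). Anchors of the axon initial segment were widespread. Ank3, which encodes ankyrin-G, the anchor of sodium channels at that site, was found in 49 cells (log2 fold change -0.15, SE 0.47), Ank2 in 55 (-0.54, SE 0.38) and the adhesion gene Cntn1 in 54 (0.09, SE 0.48). Nrcam, a cell adhesion molecule of nodes and initial segments, was found in 39 cells and was the 1 gene of the 35 with an unadjusted edgeR p under 0.05, a share below the 3.5% of all genes (log2 fold change 1.28, SE 0.48, p = 0.0481, adjusted p = 1), with log2 ratios of 1.63 in females and 0.91 in males.

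Of the sodium leak channel, which sets a steady inward current at rest, the pore gene Nalcn was found in 15 cells and the genes of its partners Unc79, Fam155a and Unc80 in 18, 15 and 12 cells. The list of channel modifiers included the calmodulin genes Calm2, found in all 62 cells, and Calm3, found in 60, and the kinase gene Gsk3b in 61. The splicing regulators Celf4, Rbfox1, Rbfox2 and Rbfox3 were found in 59, 48, 47 and 46 cells. Rest, the repressor of neuronal genes that silences sodium channel genes outside neurons, reached 10 CPM in 3 cells. No gene of these 3 lists passed an unadjusted p of 0.05 for genotype.

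Genes most like each subunit across the 62 cells were sought among 6661 genes by rank correlation of log2(CPM + 1), and up to 3 at 0.5 or more were named. For Scn8a they were Cttnbp2 (0.63), Nipsnap2 (0.57) and Flna (0.56). For Scn3b they were Nrcam (0.56), Zdhhc17 (0.51) and Cnksr2 (0.51), and for Scn1a Adarb1 (0.55), Zdhhc17 (0.54) and Rc3h2 (0.52). Scn2a had Mrpl38 (0.58), Zfp61 (0.55) and Dusp26 (0.54), and Scn3a had Rfc2 (0.56), Kdm4a (0.55) and Ext1 (0.54). No gene reached 0.5 for Scn2b, and no other subunit was among the 3 for any of them. These are the highest of many values over cells that share chemistry and depth, and are a description.

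In the cells marked as contaminated, Scn1a, Scn2a, Scn3a, Scn8a and Scn3b had lower pooled levels than in the other kept WT cells. Pooled over the 5 marked WT cells, Scn1a stood at 3.62 CPM, against 43.3 CPM in the 28 unmarked WT cells, Scn2a at 9.12 against 73.3 CPM and Scn3a at 16.3 against 44.1 CPM. Scn8a stood at 40.0 against 98.1 CPM, Scn3b at 48.8 against 125 CPM and Scn2b at 5.90 against 7.52 CPM, or 4.74 CPM in unmarked WT cells without WT female cell 3. Scn3b in the marked cells was 20.5 CPM without the 1 female cell. Per cell the ranges overlapped, and the median of Scn3a was 11.2 CPM in marked and 8.67 CPM in unmarked WT cells. The range of Scn1a was 0.349 to 10.2 CPM in marked and 0.260 to 247 CPM in unmarked WT cells. Microglial markers summed to 9114 CPM in the marked and to 132 CPM in the unmarked WT cells. Scn4b stood at 5.62 CPM in the marked cells, all of it from 1 cell. These are pooled values without a test, and the part of the microglial transcripts was not tested.

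In the 9 cells that the authors' filter removed, 6 of the 7 subunits were still present. Total counts ran from 899625 to 6253603 in removed and from 2946456 to 12070780 in the 62 kept cells, so the ranges overlap. The removed cells were 4 Mut female, 4 Mut male and 1 WT male cells. Pooled, Scn1a stood at 29.0 CPM in removed and 47.7 CPM in the 62 kept cells, Scn2a at 10.8 and 74.9 CPM, and Scn3a at 31.03 and 47.3 CPM. Scn8a stood at 18.01 CPM in removed and 82.7 CPM in kept cells, and Scn3b at 77.0 and 123 CPM. Scn4b had no count in the removed cells. Scn2b stood at 38.6 CPM in removed and 9.28 CPM in kept cells. Its highest value among the removed cells was 383 CPM and its median 6.10 CPM, and without Mut female cell 4 the pooled value was 23.04 CPM. Without Mut female cell 9, the removed cells had 9.503 CPM of Scn1a, 4.18 CPM of Scn2a, 2.97 CPM of Scn3a, 11.9 CPM of Scn8a and 13.8 CPM of Scn3b.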

How the data were processed

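Single cells of postnatal day 4 mice were sampled by Patch-seq and sequenced from Nextera XT libraries, per the labels' protocols. Reads were quantified with kallisto on GRCm38, per the submitters' processing notes, with no version or annotation given in the sources used here. The authors deposited estimated counts per gene symbol, which need not be whole, before and after their quality filter, and a table of TPM, both used as deposited. Neither the filter's criterion nor the reason for a contamination mark is given in the sources used here. Columns of other samples, 44 in the kept table and 52 in the unfiltered table, were not used.

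Unmarked kept cells were summed by genotype and sex, and the summed counts were rounded. The 4 sums held 117701842 (Mut female), 61543135 (WT female), 112199121 (Mut male) and 120682125 (WT male) counts. They were tested with edgeR 4.0.16 (R 4.3.3; glmQLFit, glmQLFTest, terms for sex and genotype, Benjamini-Hochberg adjustment over all genes), after filterByExpr with a minimum count of 10 and TMM scaling. DESeq2 1.42.0 was an alternative. The fit was also run on simulated counts, with an outcome not reported here and no conclusion drawn from it. Log2 ratios within a sex used a pseudocount of 1 CPM. A subunit was counted as found in a cell at 10 CPM of the cell's own total. Exact Poisson and Clopper-Pearson intervals at 95% and the floor of 3 counts cover counting error only, since PCR reads carry no molecular identifiers and cells of 1 animal are not independent. Cell numbers are numbers within a group.

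The sequences printed and the shared 31-base words came from GENCODE M21 transcripts of GRCm38. All 7 subunits are named, of each partner list the 4 of highest mean CPM over the sums, and genes like a subunit by rank correlation of at least 0.5 among genes at 10 CPM in at least 15 cells. Scn7a, Scn10a, Scn4a, Scn11a and Rest are named to complete their lists, and some list members and sequences are not reported here. The subunits, the lists, the limit of 10 CPM and the tests were chosen with earlier results of these data known. Alternatives covered the scaling, the filter, the tool, the covariate, the pseudocount, the limit and the cells included, with each cell left out in turn.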

Additional observations from a re-analysis of the deposited data

Results flagged for a closer look

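Scn4b, near 0 in the 62 unmarked kept cells, stood at 30.8 CPM in WT male contaminated cell 1 and at 0 in the 3 other WT male contaminated cells. This cell lay far from the others of its group. With the 3 others tied at 0 any value above 0 would have done so, and the usual rate of about 1 chance flag in 20 groups does not hold for it; 13 sets of a subunit and a group were examined. Pooled over the 5 contaminated cells Scn4b stood at 5.62 CPM, above its level in the kept WT cells, where 1 count was found in 28 cells.

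Scn1a had a log2 ratio of Mut over WT of 1.32 in females and -0.39 in males, and Scn3b one of 0.37 in females and -0.27 in males. For both genes the sign in each sex was the same whichever single cell was left out, which is the rule that flagged them. The medians over cells went against the sums for Scn3b in females (93.4 CPM in Mut, 118 CPM in WT). So did those for Scn1a in males (14.1 CPM in Mut, 11.3 CPM in WT). For Scn1a in females and Scn3b in males the medians went the way of the sums. Whether females and males differed in this was not tested, since each group is 1 sum.

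Scn2b, outside the comparisons, stood at 38.6 CPM pooled over the 9 cells that the authors' filter removed, and at 10.7 CPM in the 34 kept Mut cells and 7.52 CPM in the 28 kept WT cells. Of the removed cells 8 were Mut and 1 was WT, their median was 6.10 CPM, and without Mut female cell 4, at 383 CPM, the pooled value was 23.04 CPM.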

How the results depend on the processing

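Of the 11 other settings of the edgeR fit or its cells, DESeq2 alone moved the counts of genes called, to 367 higher and 299 lower in Mut and to 448 higher and 263 lower in males, with no subunit among them. With every cell scaled to 1 total the genotype median of the subunits was -0.065, Scn2b -0.15 and Scn3b -0.074. With contaminated cells added Scn2a was 0.064, and without WT female cell 7 and Mut female cell 20 Scn3b was -0.091. The sex median, 0.012, became -0.012 with median-of-ratios scaling and with DESeq2, -0.048 without a covariate, -0.035 with cells scaled to 1 total, -0.12 with contaminated cells, -0.026 with removed cells, -0.059 without WT female cell 7 and Mut female cell 20, and -0.086 with Lhx6 cells only. Scn2b in females was 0.24 with library totals.

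Cells with any subunit, 58 of 62, became 62 at a limit of 1 count and 52 at 50 CPM. Cells with an alpha and a beta subunit, 45, became 62 at 1 count, 29 at 50 CPM and 31 at 10 TPM. By mean TPM or by the share of cells at 10 TPM, 5 of the 6 neighbouring pairs kept their order.

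Leaving out each cell in turn gave 0 to 0 genes called. The genotype values ran from -0.062 to 0.18 for the median of the subunits, 0.20 to 0.63 for Scn1a, -0.42 to 0.22 for Scn2a, -0.19 to 0.58 for Scn3a, -0.40 to -0.03 for Scn8a, -0.087 to 0.95 for Scn2b and -0.10 to 0.15 for Scn3b. The sex values ran from -0.13 to 0.23 for the median, and from -0.50 to 0.27 for Scn3a. Within females the ratios ran from 0.10 to 0.43 for the median, -0.19 to 0.995 for Scn2a, -0.11 to 1.27 for Scn3a, -0.10 to 0.44 for Scn8a and -0.54 to 1.32 for Scn2b, and within males from -0.49 to -0.17 for the median and -0.81 to 0.15 for Scn3a. The cause of these shifts was not tested.

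No paired analysis was possible because cell numbers name cells within a group and pair no cells across groups. With 1 sum per group and 1 residual degree of freedom, changes inside the printed intervals were not detectable. The p-values rest only on the spread that the fit leaves between these sums. For a gene, that spread is the disagreement of the sexes in the genotype ratio, moderated over all genes. It holds no measured spread between animals.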
